A study of Homo sapiens with 12 samples.

Results

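L1PA5 and L1PA6 are subfamilies of LINE-1 (L1), the retrotransposon that makes up a large part of the human genome. Their full-length copies were chosen here by the subfamily name in the deposited L1 tables. This gave 870 L1PA5 and 709 L1PA6 copies, together 1579 of the 6437 full-length L1 copies listed from 8 subfamilies. The RNA came from HAP1 cells, a near-haploid human line labelled chronic myelogenous leukemia, either wild type (WT) or with SETDB1 knocked out (SETDB1 KO). Both groups carried no other labelled allele or treatment and were grown in IMDM with 10% FBS. Each group had 3 libraries made with the non-directional kit, labelled biological replicates. The 6 libraries made with the directional kit were not used here. Whether the knockout was 1 clone, and whether replicates came from separate cultures, is not given in the sources used here, so p-values measured only the spread between these libraries.

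A full-length L1 carries its own promoter in its 5′ untranslated region, followed by ORF1, which encodes an RNA-binding protein, and ORF2, which encodes an endonuclease and reverse transcriptase. The L1PA subfamilies are successive generations of 1 primate lineage: L1HS is the youngest, and L1PA5 and L1PA6 are older copies that no longer move. SETDB1 methylates lysine 9 of histone H3 and is brought to repeats by TRIM28 and KRAB zinc finger proteins. Of the latter, ZNF93 is known to bind the 5′ region of L1PA elements. The comparison asked which of these older copies gave more or fewer reads without SETDB1.

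The sequences below show what the copies share at the start of the promoter region, where their transcription begins. They came from GENCODE 29 transcripts (GRCh38), which hold a copy only where it lies in an annotated exon. Of the 21 members with at least 100 exonic bases that were read, 13 could be read over their first 30 bases. The letters AAGATGG, the core to which the transcription factor YY1 binds in L1 promoters, are in capitals where present. They were searched in the sense direction of the copy in each of these 13 windows. That direction was inferred, as the strand with more A than T in the exonic bases. For the copy at chr2:37594198-37600327, counted as having the core, A and T were equal (23.4%) and minus was taken.
L1PA5, lncRNA KCNQ1OT1, chr11:2634175-2640355, minus strand: ggggtggttccAAGATGGccgaataggagg
L1PA5, AC092802.1, chr1:95158525-95164627, minus strand: gttccAAGATGGccgaataggaccagctcc
L1PA6, MRPS5 transcript, chr2:95092744-95098852, plus strand: tccgttccAAGATGGccgaatagtaacagc
L1PA6, SLC38A1 transcript, chr12:46189949-46196086, minus strand: ttccaagatagccaaataggaacagctctg
L1PA6, MIPOL1 transcript, chr14:37501629-37507758, plus strand: ccaagataaccaaataggaacagctctagt

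The core was present in 10 of the 13 starts and absent in 3 L1PA6 copies, those in SLC38A1, MIPOL1 and FAM228B. On either strand it was in 1757 of the 351160 windows (0.5003%) of 30 bases cut from RefSeq promoters (GRCh38). A start with the core did not always have reads. The KCNQ1OT1 copy had 0 reads in all 6 libraries, and so did the MIPOL1 copy, which lacks the core. The MRPS5 copy, which has it, had 147, 131 and 152 reads in WT and 176, 195 and 192 in SETDB1 KO. It covers 948 exonic bases of an MRPS5 transcript and runs opposite to it. MRPS5 had 1150, 942 and 1045 counts in WT and 1314, 1389 and 1334 in SETDB1 KO. Whether the reads came from that gene or from the start of the copy was not tested.

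Over 6058 aligned bases, with gaps left out, the L1PA5 copy in KCNQ1OT1 was 89.7% identical to the L1PA6 copy in MIPOL1. It was 93.6% identical over 6105 bases to the L1PA5 copy at chr6:159670615-159676755, in a SOD2 transcript. The KCNQ1OT1 copy held 62 CpG sites and the MIPOL1 copy 40. How reads that match several copies were counted is not given in the sources used here. Whether a value for 1 copy holds reads from another was not tested.

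The total of each subfamily was slightly higher in SETDB1 KO. L1PA5 gave 481, 469 and 480 reads per 1000000 gene counts (RPM) in WT and 554, 571 and 554 in SETDB1 KO. Group means were 477 ± 6.93 and 560 ± 9.92 (SD, n = 3), a ratio of 1.17, and the groups did not overlap. L1PA6 gave 389, 374 and 381 in WT against 409, 424 and 403 in SETDB1 KO, with means of 381 ± 7.54 and 412 ± 11.0 (SD, n = 3) and a ratio of 1.08. Here too each knockout library lay above all WT libraries, by a small margin. No test was made on these sums.

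Both rises depended on the scale. The deposited L1 values carry 1 factor per library, from 1.04 to 1.22 in WT and from 0.835 to 0.856 in SETDB1 KO. The more L1 reads a library had, the smaller was its factor. L1 reads were 25762 to 31136 in WT and 41474 to 42626 in SETDB1 KO. Gene counts overlapped between the groups (8921959 to 10199215 and 9772897 to 10158771). How the factors were derived was not tested. Summed as deposited, they gave ratios of 0.919 for L1PA5 and 0.845 for L1PA6, below 1 in each case. Outside annotated genes, the L1PA5 ratio was 1.46 and the L1PA6 ratio 0.979. The L1PA6 value rested largely on the copies at chr6:30430281-30436430 and chr6:29779788-29785823, which both fell. In WT they held 29.3 and 15.1 of the 66.0 RPM of L1PA6 outside genes. In SETDB1 KO they held 15.6 and 11.2 of 64.6 RPM, so the ratio does not describe the other L1PA6 copies there.

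As a share of all L1 reads the pair lost ground, and so did L1PA4, L1PA7 and L1PA8. L1PA5 and L1PA6 together held 28.5%, 29.2% and 28.9% of all L1 reads in WT and 22.6%, 23.5% and 22.8% in SETDB1 KO. The share fell by 5.88 percentage points and the groups did not overlap. This share does not depend on the scale of the library. Mean shares also fell in L1PA4 (14.1% in WT to 13.4% in SETDB1 KO), L1PA7 (8.72% to 7.41%) and L1PA8 (1.16% to 1.03%). They rose in L1HS (6.21% to 7.85%), L1PA2 (17.0% to 23.0%) and, with overlap, L1PA3 (24.0% to 24.3%). The ratio of totals was 1.80 for L1HS, 1.93 for L1PA2, 1.44 for L1PA3 and 1.35 for L1PA4, and for the oldest subfamilies 1.21 (L1PA7) and 1.27 (L1PA8). Of these 8 subfamilies, L1PA6 had the lowest ratio of totals and L1PA5 the next lowest. The order differed for the median log2 fold change over tested copies. It was 0.05 in L1PA7 and 0.06 in L1PA8, below 0.12 in L1PA5 and 0.12 in L1PA6. Differences between subfamilies were not tested.

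**Figure D1:**
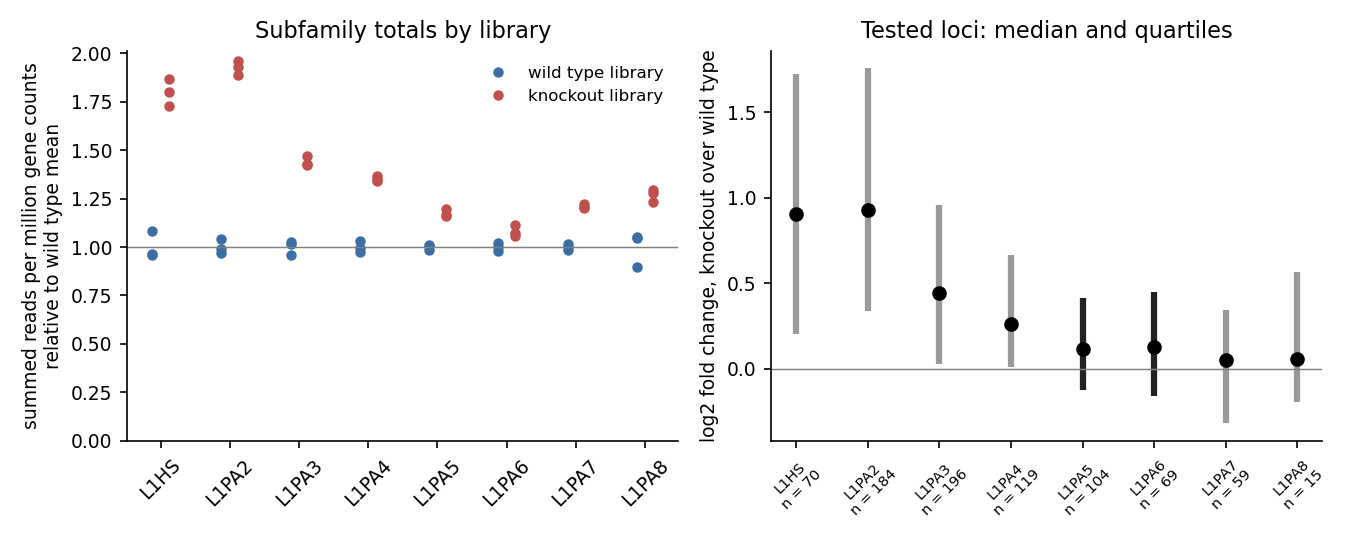
Left, summed RPM of each L1 subfamily in each library, divided by the mean of the 3 WT libraries (blue, WT; red, SETDB1 KO). Right, median (point) and quartiles (bar) of the log2 fold change over the tested copies, with their number. L1PA5 and L1PA6 sit at ratios of 1.17 and 1.08, and the medians of their copies are both 0.12. Medians are 0.90 for L1HS, 0.93 for L1PA2, 0.05 for L1PA7 and 0.06 for L1PA8.

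Few copies carried the reads. No read was listed in any of the 6 libraries for 165 L1PA5 and 227 L1PA6 copies, and 1014 more had reads but too few to be tested. The remaining 173 (104 L1PA5 and 69 L1PA6) held 84.3% of the reads of the members. The 10 most-read copies alone held 36.5% of L1PA5 reads and 48.5% of L1PA6 reads. A count of 0 allowed up to 3 reads, or 0.294 to 0.336 RPM depending on the library. The proportion of copies with any read was 81.0% in L1PA5 and 68.0% in L1PA6, between 87.8% in L1PA4 and 54.5% in L1PA7.

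Among the tested copies 29 passed the test (limma, Benjamini-Hochberg adjusted p under 0.05 over all 816 L1 copies tested), of which 23 rose and 6 fell. L1PA5 had 16 that rose and 2 that fell, which is 17.3% of its tested copies. In L1PA6, 7 rose and 4 fell (15.9%). Over all L1 copies tested, 34.4% passed, 30.1% higher and 4.29% lower in SETDB1 KO. The share of members that rose (13.3%) was thus below that of L1 copies at large, and the share that fell was 3.47%. In L1PA7, 5.08% of 59 tested copies rose and 10.2% fell. In L1PA8, 13.3% of 15 tested copies rose and 0% fell. edgeR on the recovered reads called 23 members higher and 6 lower, and 28 of its calls were shared with limma. Over all L1 copies it called 248 higher (30.4%) and 35 lower (4.29%).

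The median log2 fold change was 0.12 in L1PA5 and 0.12 in L1PA6, against 0.37 over all L1 copies tested. The SETDB1 KO libraries all lay above the WT libraries in 39 members and all below in 18. For all L1 copies these shares were 37.5% and 7.23%. The 144 members that did not pass had log2 fold changes from -1.11 to 1.08, with a median SE of 0.30, and in 116 of them the groups overlapped. On the deposited scale the balance turned: L1PA5 then had 10 higher and 15 lower, and L1PA6 4 higher and 9 lower. The factors of that scale were smaller in SETDB1 KO, as given above.

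**Figure D2:**
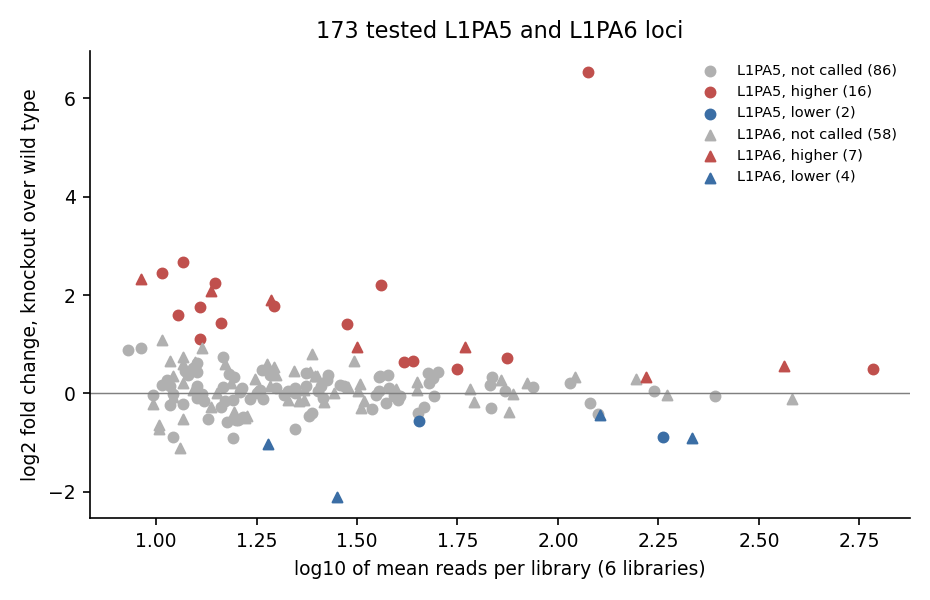
Log2 fold change (SETDB1 KO over WT) of the 173 tested members against the log10 of their mean reads per library (circles, L1PA5; triangles, L1PA6; red, passed the test and higher; blue, passed and lower; grey, did not pass). One L1PA5 copy stands apart at a log2 fold change of 6.53.

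One L1PA5 copy on chromosome 2 stood apart from all other members. It lies at chr2:51769032-51775205, in an intron of the long non-coding RNA AC007402.1. It had 0, 2 and 4 reads in WT and 221, 231 and 255 in SETDB1 KO. Nearly silent in WT, it was among the most-read members in SETDB1 KO. The ratio of pooled reads was 113 (95% exact interval 51.7 to 309, counting error only). The log2 fold change was 6.53 ± 0.41 (SE, limma adjusted p = 5.27e-10).

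The gene around this copy had almost no gene counts. AC007402.1 had 0 counts in the 3 WT libraries and 1, 0 and 1 in SETDB1 KO. Whether RNA from its intron gave reads of the copy was not tested. The nearest tested genes, ASB3 and STON1-GTF2A1L, were 1757467 and 2992515 bp away and did not pass the test, with log2 fold changes of 0.14 ± 0.39 and -0.33 ± 0.33 (SE, edgeR). Without this copy the ratio of the L1PA5 totals was 1.13.

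A second L1PA5 copy rose outside any gene, at chr4:129715500-129721626. Its reads were 10, 16 and 10 in WT and 47, 71 and 64 in SETDB1 KO, with a log2 fold change of 2.20 ± 0.27 (SE, limma adjusted p = 7.29e-06). The nearest tested genes were far off, C4orf33 at 598860 bp and PABPC4L at 4474707 bp, and neither passed the test.

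Copies in other weakly counted genes also rose, from few reads. At chr7:103244597-103250743, in the pseudogene DPY19L2P2, L1PA5 reads were 6, 0 and 4 in WT and 22, 22 and 16 in SETDB1 KO (log2 fold change 2.67 ± 0.63 SE, limma adjusted p = 0.00287). DPY19L2P2 itself had 5 to 12 counts in WT and 8 to 21 in SETDB1 KO, with overlap. At chr4:103385094-103391522, in the long non-coding RNA LINC02428, L1PA5 reads were 10, 2 and 0 in WT and 15, 17 and 18 in SETDB1 KO (log2 fold change 2.44 ± 0.69 SE, limma adjusted p = 0.00967). That call was lost with DESeq2 (adjusted p = 0.115), without knockout replicate 2 (0.0541) and without knockout replicate 3 (0.0824). Without WT replicate 3, the library with 0 reads, its log2 fold change was 1.59.

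All 4 tested members on chromosome 19 rose, and all lay among KRAB zinc finger genes that rose as well. The L1PA5 copy at chr19:19917951-19924055 lies in an intron of ZNF93 itself. It had 2, 6 and 5 reads in WT and 21, 24 and 26 in SETDB1 KO, with a log2 fold change of 2.24 ± 0.43 (SE, limma adjusted p = 0.000506). ZNF93 had 6, 4 and 5 counts in WT and 261, 237 and 258 in SETDB1 KO, and rose by 5.55 ± 0.19 on the log2 scale (SE, adjusted p = 5.21e-42 by edgeR). The gene for a repressor of L1PA elements and the L1PA5 copy inside it were both near 0 in WT and clearly above it in SETDB1 KO. The libraries do not keep strand, so reads from the intron of ZNF93 and reads from the copy's own promoter cannot be told apart.

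An L1PA6 copy at chr19:22148370-22154509 and an L1PA5 copy at chr19:22155501-22161653 are neighbours between ZNF257 and VN1R85P. The L1PA6 copy had 4, 14 and 6 reads in WT and 26, 38 and 28 in SETDB1 KO. Its L1PA5 neighbour had 4, 14 and 8 and then 26, 38 and 28, equal in 5 of the 6 libraries. These values are hardly independent measurements. Their log2 fold changes were 1.897 ± 0.397 and 1.775 ± 0.389 (SE, limma adjusted p = 0.00107 and 0.00161). ZNF257, a zinc finger gene 56890 bp before the L1PA6 copy, went from 12, 19 and 16 counts to 1064, 1032 and 1098.

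The L1PA6 copy at chr19:20482443-20488575, in the long non-coding RNA AC008554.1, had 0, 5 and 4 reads in WT and 16, 12 and 18 in SETDB1 KO (log2 fold change 2.32 ± 0.67 SE, limma adjusted p = 0.0109). AC008554.1 had 0 counts in 5 libraries and 1 in the other. On either side ZNF826P went from 0 counts in each WT library to 134, 95 and 137, and ZNF737 from 78 to 81 counts to 151 to 176. The call on this copy was lost without knockout replicate 1 (limma adjusted p = 0.0627) and without knockout replicate 3 (0.0828). Without WT replicate 1, the library with 0 reads, its log2 fold change was 1.47.

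Another L1PA6 copy beside a gene that rose is at chr6:3672188-3678310, outside annotated genes. It had 4, 3 and 7 reads in WT and 24, 24 and 20 in SETDB1 KO (log2 fold change 2.07 ± 0.40 SE, limma adjusted p = 0.000582). AL138881.1, 47441 bp away, rose by 2.599 ± 0.287 on the log2 scale (SE, edgeR adjusted p = 9.07e-13), and PXDC1 on the other side did not pass the test (0.19 ± 0.20 SE).

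The largest falls were in L1PA6. The copy at chr1:173650109-173656242, in introns of ANKRD45 and AL139142.2, had 50, 51 and 35 reads in WT and 6, 17 and 10 in SETDB1 KO. It fell by 2.10 ± 0.33 on the log2 scale (SE, limma adjusted p = 6.47e-05). ANKRD45 had 16, 19 and 18 counts in WT and 2, 10 and 5 in SETDB1 KO and fell by 1.69 ± 0.38 (SE, edgeR adjusted p = 9.53e-05). Expressed genes within 5 Mb of the copy were lower too, with a median log2 fold change of -0.52. Their part in the fall was not tested. Relative to that median the change was -1.58.

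A pair of L1PA6 copies on the short arm of chromosome 6, in the major histocompatibility complex, fell outside annotated genes. The copy at chr6:30430281-30436430 had 276, 292 and 264 reads in WT and 169, 136 and 158 in SETDB1 KO, and fell by 0.91 ± 0.12 on the log2 scale (SE, limma adjusted p = 1.13e-05). Neither flanking tested gene passed: TRIM39 was at 0.07 ± 0.12 and the pseudogene RANP1 at 0.60 ± 0.29 (SE, edgeR). The copy at chr6:29779788-29785823 had 163, 133 and 135 reads and then 103, 103 and 126, a fall of 0.44 ± 0.13 (SE, limma adjusted p = 0.0155). HLA-F-AS1, 30739 bp before it, did not pass (0.49 ± 0.38 SE, edgeR adjusted p = 0.295). HLA-G, an antigen-presenting molecule of the placenta, lies 41144 bp after it and had 10 to 13 counts in WT and 2 to 8 in SETDB1 KO (log2 fold change -1.05 ± 0.42 SE, edgeR adjusted p = 0.0281). The call on the second copy was lost without WT replicate 1 (0.0602), knockout replicate 1 (0.0541) or knockout replicate 2 (0.0541).

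In L1PA5 both copies that fell lie in genes on the X chromosome that fell alike. The copy at chrX:133621187-133627320, in GPC3, a cell-surface proteoglycan, had 257, 219 and 228 reads in WT and 141, 121 and 132 in SETDB1 KO. It fell by 0.89 ± 0.12 on the log2 scale (SE, limma adjusted p = 1.03e-05) and GPC3 fell by 0.93 ± 0.03 (SE, edgeR adjusted p = 6.10e-41). The copy at chrX:41808586-41814752, in CASK, a scaffold protein of cell junctions, had 55, 55 and 49 reads and then 35, 41 and 36, a fall of 0.56 ± 0.20 (SE, limma adjusted p = 0.0335). CASK fell by 0.77 ± 0.05. The CASK copy lost its call without WT replicate 1 or 2 and without knockout replicate 1 or 3, with adjusted p from 0.0547 to 0.101.

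A copy in WASF1, an actin regulator, had the highest adjusted p of the 6 falls. This L1PA6 copy at chr6:110116062-110122197 had 25, 22 and 26 reads in WT and 5, 17 and 19 in SETDB1 KO (log2 fold change -1.03 ± 0.38 SE, limma adjusted p = 0.0436). One knockout library was far below the other two. Without it the log2 fold change was -0.48 (adjusted p = 0.257), and edgeR gave an adjusted p of 0.0517. Leaving out any library but knockout replicate 2 ended the call.

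**Figure D3:**
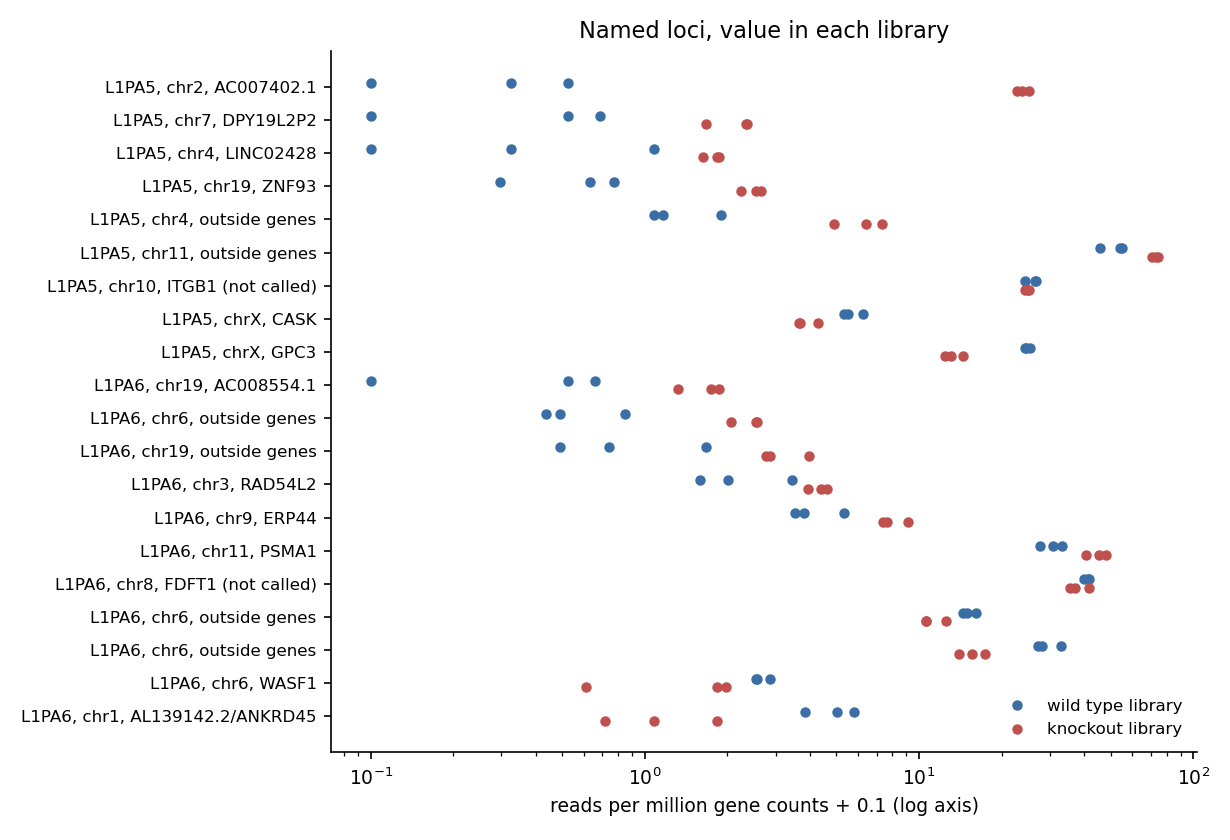
The x axis gives RPM plus 0.1 (log axis) of each named L1PA5 and L1PA6 copy in each library (blue, WT; red, SETDB1 KO), with its chromosome and the gene it lies in. The copy in AC007402.1 goes from 0 to 4 reads in WT to over 200 in SETDB1 KO, and the copies in ITGB1 and FDFT1 overlap between groups.

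Of the 6 most-read members, 4 passed the test: the copy in GPC3 and that at chr6:30430281 fell as described above, and both most-read copies on chromosome 11 rose. The L1PA5 copy with the most reads, at chr11:18658798-18664912 outside annotated genes, had 560, 407 and 509 reads in WT and 714, 728 and 718 in SETDB1 KO, a rise of 0.50 ± 0.08 on the log2 scale (SE, limma adjusted p = 0.000119). AP006296.1 begins 138 bp after it and rose by 0.61 ± 0.19, and SPTY2D1, a histone chaperone gene 24007 bp before it, by 0.37 ± 0.06 (SE, edgeR). The L1PA5 copy at chr10:32912177-32918355, in the integrin gene ITGB1, had 272, 235 and 228 reads and then 243, 246 and 247, and did not pass the test (-0.06 ± 0.10 SE).

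For L1PA6 the most-read copy was at chr8:11814869-11821002, in FDFT1, the squalene synthase gene. It had 421, 370 and 376 reads in WT and 360, 406 and 361 in SETDB1 KO and did not pass (-0.11 ± 0.09 SE). The copy at chr11:14594761-14600876, in the proteasome subunit gene PSMA1, had 339, 245 and 288 reads and then 442, 470 and 412, a rise of 0.55 ± 0.10 (SE, limma adjusted p = 0.000269). PSMA1 itself was at 0.01 ± 0.09 (SE, edgeR adjusted p = 0.955). On the deposited scale the chromosome 11 copies no longer passed (adjusted p = 0.182 and 0.135), while those in ITGB1 and FDFT1 passed as lower (0.00447 and 0.000717).

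Smaller rises of L1PA6 copies were seen in introns of active genes. In RAD54L2, a chromatin remodeller, the copy at chr3:51647859-51653935 had 34, 17 and 14 reads in WT and 44, 42 and 39 in SETDB1 KO (log2 fold change 0.95 ± 0.27 SE, limma adjusted p = 0.0109), while the gene rose by 0.14 ± 0.04. That copy's call was lost without WT replicate 3 (0.0600) and without knockout replicate 3 (0.0523). In ERP44, a chaperone of the secretory pathway, the copy at chr9:99988562-99994665 had 35, 33 and 49 reads and then 88, 74 and 74 (0.95 ± 0.20 SE, limma adjusted p = 0.00104). ERP44 rose by 0.56 ± 0.05, and the expressed genes within 5 Mb had a median log2 fold change of 0.39. The part of that local shift in the rise was not tested.

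The remaining members that passed the test all rose. They included L1PA5 copies in OTX2-AS1, SUGCT, SPAST, MAMDC2, WDR70 and TRIM44, and an L1PA6 copy in MRPS5. Another L1PA5 copy, at chr8:75324222-75330225, overlaps only the start of CASC9, a minus-strand gene at chr8:75223404-75324741. A further copy lies 747 bp from SLC11A2 on chromosome 12. Their log2 fold changes ran from 0.33 ± 0.12 in MRPS5 to 1.76 ± 0.40 in OTX2-AS1 (SE, limma). The copy in SPAST, a microtubule-severing enzyme gene, had 17, 15 and 14 reads in WT and 45, 43 and 45 in SETDB1 KO, and SPAST rose by 1.16 ± 0.06 (SE, edgeR). Some of these copies and nearby genes went opposite ways. The OTX2-AS1 copy had 6, 3 and 7 reads and then 20, 18 and 23, whereas the gene fell by 0.91 ± 0.30 (SE, edgeR adjusted p = 0.00763). That copy also lies in AL391152.1, which went from 3, 2 and 5 counts to 7, 8 and 9, too few to be tested. The copy in MAMDC2, an extracellular matrix protein gene, had 54, 53 and 56 reads and then 86, 86 and 112. MAMDC2 went from 6, 8 and 5 counts to 0 in each knockout library, too few to be tested. The same copy also lies in SMC5-AS1, which went from 4, 8 and 6 counts to 10, 11 and 9, also untested. The nearest tested genes on either side, SMC5 and C9orf135, rose by 0.41 ± 0.05 and 1.92 ± 0.10 (SE, edgeR). SLC11A2, an iron transporter gene, fell by 0.20 ± 0.05 (SE, edgeR adjusted p = 0.000208), and the copy beside it had 10, 8 and 4 reads and then 24, 15 and 26.

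Most tested members lie inside genes, and copy and gene had the same direction of change in 101 of 149 cases. Of the 870 L1PA5 copies, 433 lay outside annotated genes, 419 in introns only and 18 overlapped an exon, and 7, 91 and 6 of these were tested. For L1PA6 the copies numbered 389, 304 and 16, with 8, 56 and 5 tested. So 21.7% of intronic L1PA5 copies had enough reads against 1.62% of those outside genes, and for L1PA6 18.4% against 2.06%. The 15 tested copies outside genes gave 6 rises and 2 falls, against 83 rises and 10 falls among all 139 L1 copies tested outside genes.

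Of the 29 members that passed, 21 lay within genes and in 16 of these the gene was itself tested. In 15 of the 16 the gene's fold change had the same sign, and in 14 the gene also passed the test in that direction. Among all genes 51.5% passed the edgeR test (25.5% higher, 25.9% lower). Of the 149 tested members in a tested gene, copy and gene changed with the same sign in 101 and with opposite signs in the others. Over all 149, their log2 fold changes had a Pearson's r of 0.60 and a Spearman's rho of 0.50. These points are across copies, share the 6 libraries, and include copies in the same gene. The level of the copy and of the gene also went together (Spearman's rho 0.56). Whether the reads came from the gene's unspliced RNA or from the copy's own start was not tested.

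**Figure D4:**
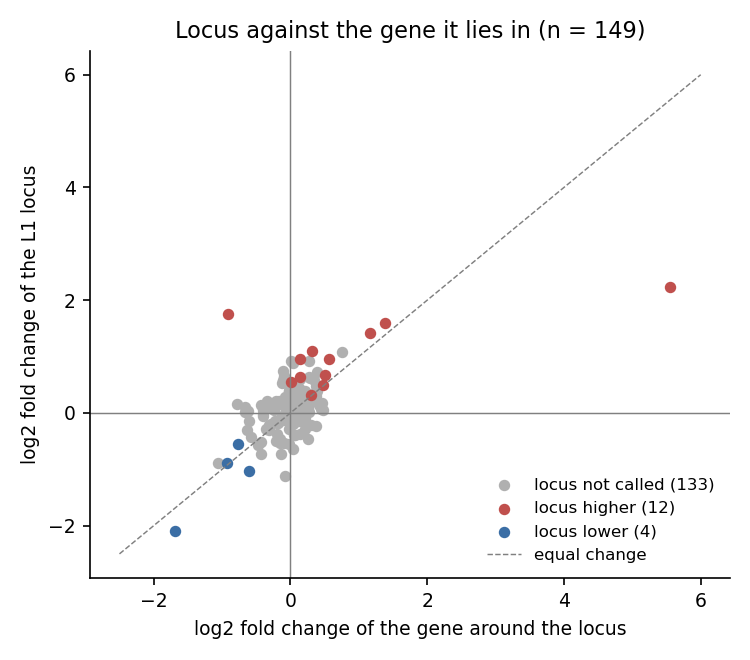
Log2 fold change of each tested member against that of the gene it lies in (149 copies; red, copy passed and higher; blue, passed and lower; grey, did not pass; dashed line, equal change). The copies in ZNF93 (gene at 5.55) and OTX2-AS1 (gene at -0.91) lie farthest from the dashed line among copies that passed.

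A few neighbouring copies carried nearly the same reads. In TRIM44, an L1PA4 copy had 41, 45, 50, 67, 68 and 64 reads over the 6 libraries, and the L1PA5 copy 12832 bp farther on had 41, 45, 50, 66, 70 and 64. In TTC28, an L1PA4 copy had 10, 17, 12, 12, 13 and 15 reads and the L1PA5 copy in the same intron 10, 19, 10, 11, 13 and 15. Within each of these pairs the values differed by at most 2 reads in any library. The same was seen across an exon: in WDR70, an L1PA7 copy had 36, 40, 44, 55, 48 and 44 reads and the L1PA6 copy 31261 bp farther on 36, 40, 44, 53, 50 and 44.

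Among 15 pairs with a member in the same intron of a protein-coding gene, the median absolute log2 ratio of total reads was 0.12, with a median gap of 12394 bp. For 44 neighbouring pairs with an exon between them it was 0.38, but these lay farther apart (median gap 81077.5 bp). Reads were equal in at least 3 libraries in 2 of the 15 pairs and 3 of the 44, and within 3 reads in all libraries in 2 and 1. Pairs that differed by over 1.5-fold were as common in one kind as in the other, 5 of 15 and 13 of 44. In SPIDR 2 L1PA5 copies of 1 intron had 56 to 89 and 9 to 15 reads. How a read split over an intron was counted is not given in the sources used here, and its part in the pairs was not tested.

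**Figure D5:**
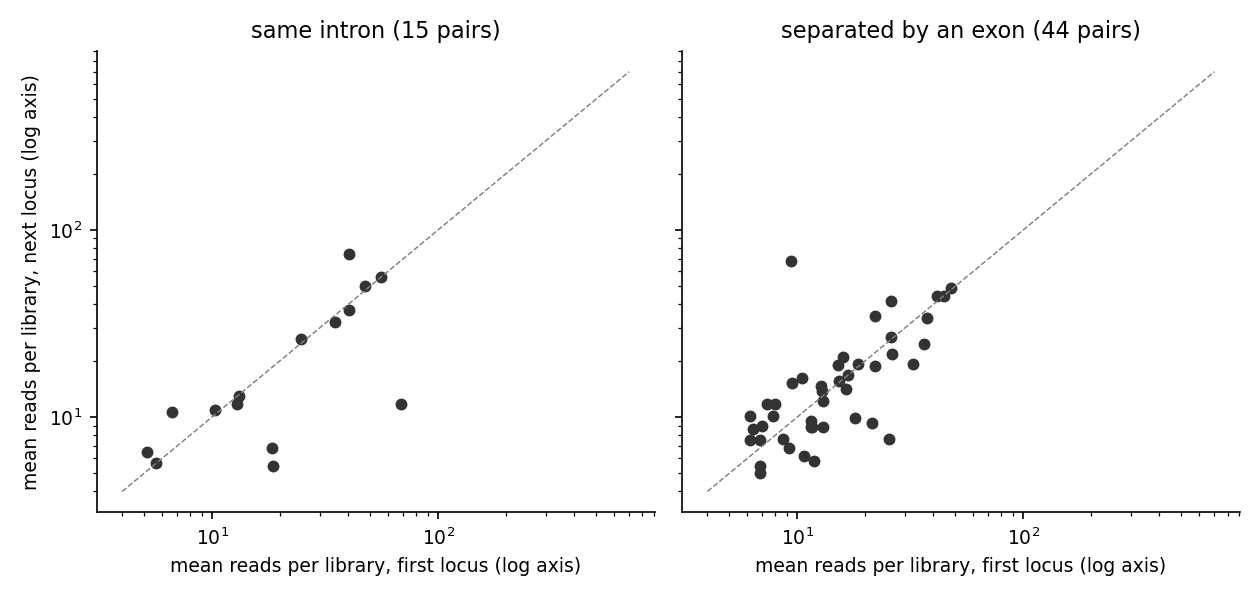
Mean reads per library (log axes) of neighbouring L1 copies of which at least 1 is L1PA5 or L1PA6, in the same intron (left, 15 pairs) or with an exon between them (right, 44 pairs). The dashed line marks equal reads; most same-intron pairs lie near it and 5 of 15 differ by over 1.5-fold.

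The RNA of genes for proteins that act on L1 did not move one way. Of 23 genes for L1 silencing, 9 rose, 9 fell and 5 did not pass the test (edgeR), with a median log2 fold change of -0.01 against 0.00 over all genes. Of all 13778 genes tested, 25.5% rose and 25.9% fell. SETDB1 itself had 651, 543 and 519 counts in WT and 118, 106 and 118 in SETDB1 KO, a fall of 2.39 ± 0.08 (SE, edgeR adjusted p = 7.03e-43), so the label matched the RNA, though counts remained. ATF7IP, the partner that stabilises SETDB1, rose by 1.62 ± 0.04, and SUV39H1, another H3K9 methyltransferase, fell by 0.74 ± 0.06. FAM208A and MORC2 of the HUSH silencing system rose by 0.30 ± 0.04 and 0.27 ± 0.04. On the same list PPHLN1 rose by 0.18 ± 0.05, FAM208B fell by 0.19 ± 0.03 and MPHOSPH8 did not pass (-0.06 ± 0.05 SE). TRIM28 fell by 0.11 ± 0.03, YY1 by 0.09 ± 0.04 and DNMT1, the maintenance DNA methyltransferase, by 0.23 ± 0.03. AGO2, the small-RNA binding protein named with SETDB1 in the title of the study, rose by 0.40 ± 0.03.

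The libraries held 8921959 to 10199215 gene counts and 25762 to 42626 L1 reads. Of 12 blood markers, 9 stayed below 1 count per 1000000 gene counts (CPM) in every library, with PTPRC, SPI1 and MPO at or near 0, so the leukemia label was not visible in them. KIT was at 18.8 and 16.6 CPM in WT and SETDB1 KO. TAL1 fell from 16.1 to 3.24 CPM. The epithelial markers went different ways: EPCAM rose from 3.74 to 39.7 CPM, and CDH1 was at 1.10 and 0.407, too low to be tested. VIM and COL1A1, looked up with them, did not pass the test. Summed blood markers were 35.2 to 36.2 CPM in WT and 19.4 to 21.6 in SETDB1 KO, and their part in the results on L1 was not tested. In such bulk RNA, fewer cells with reads and less RNA per cell cannot be told apart.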

How the data were processed

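RNA was measured by sequencing in HAP1 cells. The deposited gene tables hold raw counts, 1 table per library. The deposited L1 tables hold a normalized signal per copy: in each library 100% of non-zero values were whole multiples (tolerance 0.001) of the smallest one, so whole reads were recovered by division. The submitters' processing notes list hg38, Trim Galore 0.4.4, STAR 2.6.0a, SAMtools 1.9, Picard 2.23.8, HTSeq 0.11.1, DESeq2 3.14 and bedtools without roles. Treatment of multiply aligned reads, and whether positions count from 0 or 1, are not given in the sources used here.

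Reads were scaled to 1000000 gene counts of the same library, log2-transformed after adding 0.1, and compared with limma 3.58.1 (R 4.3.3, intensity trend), over all copies passing filterByExpr (minimum count 10, minimum total 15). The threshold was a Benjamini-Hochberg adjusted p of 0.05. Fold changes are on this log2(value + 0.1) scale; for copies with few reads they can lie below or above the ratio of pooled reads. Genes were tested with edgeR 4.0.16 (quasi-likelihood, TMM). Both fits were tested on simulated data. Genes came from GENCODE 29, which matched all 58735 gene IDs. Sequences of members in exons on human chromosome 8 were not read. Some items are not reported here.

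Of the non-zero L1 values, 62.8% to 67.2% were even, and 2 reads were listed for more copies than 1 read (950 against 356 in WT replicate 1). Intervals cover counting error only and are too narrow if each end of a read pair was counted. The 5 closing lines of the gene tables stayed out of totals. Reads in no gene were 4.00% to 4.40% of listed reads, not unique 6.86% to 7.19% and ambiguous 8.37% to 8.41%.

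The members and lists were chosen with earlier results of these data known. Copies named were, per subfamily, the up to 5 largest rises and 5 largest falls among copies that passed with groups that did not overlap, and the 3 with the most reads. Genes named were those around them, SETDB1 and silencing genes that passed. OTX2-AS1, SPAST, MPHOSPH8, other genes around or beside copies, and the intron pairs were named after their values were seen. Alternatives were other scalings, pseudocounts, filters, tools (DESeq2 1.42.0), a replicate block, leaving out libraries, and summing the knockout libraries.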

Additional observations from a re-analysis of the deposited data

How the results depend on the processing

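On the sum of deposited values the log2 ratio of totals was -0.12 for L1PA5 and -0.24 for L1PA6, against 0.23 and 0.11 on gene counts. Outside annotated genes it was 0.54 and -0.031, and the change in the share of L1 reads was -6.49 percentage points. Without the most-read copy it was 0.20 and 0.068. Without the chromosome 2 copy, a setting chosen after seeing the data, L1PA5 was at 0.17, and L1PA6 over filter-passing copies was at 0.077. With the knockout libraries summed as 1 sample, 6 L1PA5, 5 L1PA6 and 9 named copies passed, with fewer samples in the fit. Counted outside genes (also chosen after seeing the data), 4 and 4 passed. Leaving out 1 library gave 12 to 19 L1PA5 and 8 to 12 L1PA6 calls, 13 to 16 named copies, log2 ratios from 0.22 to 0.24 and from 0.09 to 0.13, shares from -6.16 to -5.68, 15 to 17 silencing genes and 8 genes around named copies. In L1PA6, 4 copies rose without knockout replicate 3, against 7. Single named copies were weaker in 39 cases, stronger in 2 and reversed in 0. Gene TMM and DESeq2 scaling left the share as it was, since the scale cancels.

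Replicate numbers did not pair the libraries: deviations of same-numbered libraries correlated by -0.003 to 0.018 over L1 copies, and 2 of 6 libraries were closest to their own number. With the replicate block, 17 L1PA5 and 11 L1PA6 copies passed (15 and 9 with edgeR), and totals were at 0.23 and 0.11. The cause of these shifts was not tested. Depth limits the 1014 members with reads but no test.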
